A study of Mus musculus with 42 samples.

Results

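At 44 h after injection, mouse embryos that had received a morpholino against Oct4 and embryos that had received one against Sall4 were set against each other directly, gene by gene. The comparison holds 6 of the 42 arrays of the study: all 3 of the Oct4 MO embryos at 44 h and all 3 of the Sall4 MO embryos at 44 h. Control-injected and uninjected embryos at 44 h (3 arrays each) are titled for an Oct4 and Sall4 experiment, and both knockdown groups were taken as part of it. All groups were B6D2F1 embryos. Oct4 MO embryos received a morpholino to Oct4 (gene symbol Pou5f1) at the 1-cell stage, Sall4 MO embryos one to Sall4, and control-injected embryos one to a sequence that mice lack. Uninjected embryos received none. All 4 groups grew in human tubal fluid medium with serum supplement, and their RNA was amplified before it was hybridised to Affymetrix arrays. Every gene was measured in whole embryos, so a fall in the number of cells of one kind and a fall in RNA per cell cannot be told apart. The labels do not say how many embryos each array pooled, or whether each oligomer blocks translation or splicing, and either action can leave the mRNA level of the target as it was.

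Oct4 is a POU-domain transcription factor that preimplantation embryos need to form a pluripotent inner cell mass, and it also acts in the first cleavages, when transcripts made by the embryo replace those stored in the egg. Sall4 is a zinc finger transcription factor of the same cells, which binds many of the same genes, Pou5f1 among them. Embryos lacking either factor fail around implantation. A direct comparison of the 2 knockdowns asks what one does that the other does not, with injection and culture shared by both groups.

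With the spread taken from all 42 arrays, the 2 knockdowns differed in many genes. Of 15478 genes tested, 1095 passed (7.07%) at an adjusted p under 0.05, 575 of them higher (3.71%) and 520 lower (3.36%) in Oct4 MO embryos than in Sall4 MO embryos. The test was limma's moderated statistic, two-sided, on log2(intensity + 16), with Benjamini-Hochberg adjustment over all genes tested and 1 estimate of the spread from all 42 arrays. The median size of the difference among passing genes was 1.44 on the log2 scale, and 264 passing genes differed by more than 2 on that scale, which understates the change of genes near the floor. The 3 and 3 arrays did not overlap in 969 of the 1095, against 3006 (19.4%) of all genes tested. Set against control-injected embryos, 1789 genes (11.6%) passed in Oct4 MO embryos, 5.38% of all genes higher and 6.18% lower, and 614 (3.97%) in Sall4 MO embryos, 1.83% higher and 2.13% lower. Both comparisons share the same 3 control arrays. On log2 values, correlations between Oct4 MO and Sall4 MO arrays were 0.875 to 0.898. Correlations within the Oct4 MO group were 0.896 to 0.906, within the Sall4 MO group 0.896 to 0.922, and within the control-injected group 0.947 to 0.953.

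The count of passing genes rests on the spread borrowed from the other groups. It was 481 when only the 12 arrays of this experiment were fitted (here the 12-array fit) and 22 with the 6 arrays alone. Leaving out 1 of the 6 arrays in turn gave 848 to 981 passing genes, and 415 of the 1095 passed in each of these 6 fits. Of the 100 passing genes named by the rule given with the processing, 65 passed in all 6 fits and 64 in the 12-array fit. Only 11 of the 100 passed with the 6 arrays alone, and for some of the 11 that adjusted p is given below. Eif3e, Dusp1, Sirt1 and Mcm5 were among those that did not (limma adjusted p = 0.0578, 0.0589, 0.0834 and 0.197). The adjusted p of the 12-array fit is given below wherever it ended the call of a gene that had passed in all 6 fits. Each gene is read from its brightest probe set. With the mean of all its probe sets instead, 18 of 99 of the named genes lost the call. Of the 99, 31 moved by more than 1.5 times. For genes that passed in all 6 fits such a value is given below as the probe set mean. An exact permutation test of a single gene with 3 and 3 arrays cannot go below p = 0.1. Of 13 markers of preimplantation embryos, 11 had a mean above the filter level of 71.15 in Oct4 MO embryos and the same number in Sall4 MO embryos. Their summed intensity was 20549, 21698 and 20068 in Oct4 MO embryos and 21085, 15533 and 20224 in Sall4 MO embryos, with Sall4 MO replicate 2 the lowest. Control-injected embryos had 22697 to 26156. Of 13 markers of cumulus and granulosa cells, which surround the egg, 1 had a mean above that level in each of the 4 groups. The summed intensity of these 13 was 196 to 320 in Oct4 MO embryos and 259 to 295 in Sall4 MO embryos.

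The targeted genes came apart in one respect. Pou5f1 mRNA read 2254, 2458 and 1942 in Oct4 MO embryos and 2556, 1384 and 2668 in Sall4 MO embryos, against 3573, 4439.7 and 3762 in control-injected embryos. The knockdown groups overlapped and both lay below the controls: the log2 difference was 0.06 ± 0.19 between them (SE, limma adjusted p = 0.929), -0.82 for Oct4 MO against control and -0.88 for Sall4 MO against control (adjusted p = 0.00323 and 0.00455). Sall4 mRNA read 1627, 1618 and 1511 in Oct4 MO embryos and 4176, 3279.7 and 3531 in Sall4 MO embryos, and 2744, 3497 and 3266 in control-injected embryos. All 3 Oct4 MO arrays lay under every other array of the experiment, and Sall4 mRNA was lower than in Sall4 MO embryos by a log2 difference of -1.19 ± 0.19 (adjusted p = 0.000144). The Sall4 MO arrays did not show a lower Sall4 mRNA than the controls, with a log2 difference of 0.21 (adjusted p = 0.702). Nanog, a homeobox factor of the inner cell mass, read 566, 998 and 1014 in Oct4 MO embryos and 1217, 563 and 697 in Sall4 MO embryos, groups that overlapped (log2 difference 0.09 ± 0.53, adjusted p = 0.971). Since a morpholino need not lower the mRNA of its target, these levels are no check that the oligomers acted.

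The counts of the gene lists from here on stand beside the shares of all genes tested: 3.71% higher, 3.36% lower and 7.07% in either direction. Of 27 pluripotency genes tested, 3 were lower in Oct4 MO embryos (11.1%) and none higher, with a list median of 0.06 against 0.03 for all genes tested. Besides Sall4, these were Fbxo15, an F-box gene known as a direct target of Oct4 in mouse embryonic stem cells, and Lin28a, an RNA-binding protein that blocks let-7 maturation. Fbxo15 read 4140.2, 4594 and 3544 in Oct4 MO embryos and 7342, 5937 and 6153 in Sall4 MO embryos, with 5903, 6365 and 6205 in control-injected embryos. The 3 Oct4 MO arrays lay below all others, and the log2 difference was -0.66 ± 0.14 (adjusted p = 0.00213, but 0.0792 in the 12-array fit). Lin28a differed by -0.63 ± 0.19 (adjusted p = 0.0404), a call lost without Oct4 MO replicate 2 or 3 or Sall4 MO replicate 1 or 2 (adjusted p up to 0.238).

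Immediate early genes, whose transcription starts within minutes of a mitogen or a stress signal, were the list with the largest share of passing members: 6 of 26 tested were higher in Oct4 MO embryos (23.1%) and none lower, with a list median of 0.89 on the log2 scale. Oct4 MO embryos had 8 members above control-injected embryos and Sall4 MO embryos none, where 5.38% and 1.83% of all genes did so. Dusp1, a phosphatase that switches off MAP kinases, read 519.8, 996 and 384 in Oct4 MO embryos and 73.7, 71.4 and 62.7 in Sall4 MO embryos, a log2 difference of 2.82 ± 0.28 (adjusted p = 6.92e-08). Every Oct4 MO array lay above the highest of the control-injected arrays, which read 156, 81.4 and 152. Ier5, whose product is known from human cells to activate heat shock factor, read 468, 1457 and 975 in Oct4 MO embryos and 83.2, 75.3 and 181 in Sall4 MO embryos, a log2 difference of 2.88 ± 0.48 (adjusted p = 0.000238), with a probe set mean of 1.26. Its controls were lower still, at 17.3, 78.9 and 18.3, as were uninjected embryos at 5.97, 2.66 and 5.46. The means of the 4 groups fell in that order, although the Sall4 MO and control-injected arrays overlapped. Egr1, a zinc finger factor of the growth factor response, read 647, 902 and 625 in Oct4 MO embryos and 97.6, 202 and 77.8 in Sall4 MO embryos and 119, 5.81 and 24.9 in control-injected embryos, with a log2 difference of 2.46 ± 0.46 between the knockdowns (adjusted p = 0.000656).

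**Figure D1:**
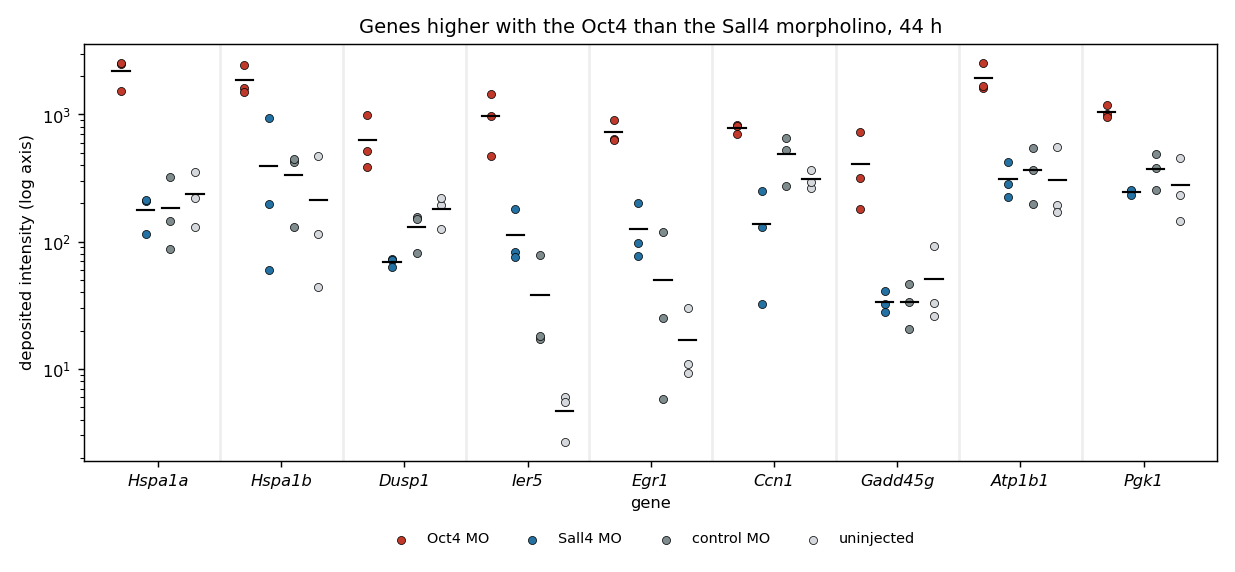
Deposited intensity (log axis) of 9 genes that were higher in Oct4 MO than in Sall4 MO embryos at 44 h; each point is 1 array, bars are means of 3 arrays, and the groups are Oct4 MO, Sall4 MO, control MO and uninjected from left to right. In Hspa1a, Dusp1, Gadd45g, Atp1b1 and Pgk1 the Oct4 MO arrays stand above all 9 others, while in Ccn1 the Sall4 MO arrays lie below the control arrays.

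Ccn1, which encodes a secreted matricellular protein and is a target of YAP and TEAD, took a different course. It read 825, 697 and 817 in Oct4 MO embryos and 131, 32.2 and 252 in Sall4 MO embryos, a log2 difference of 2.68 ± 0.51 (adjusted p = 0.000823), while control-injected embryos read 658, 274 and 527. The probe set mean of Ccn1 ended the call, with a log2 difference of 0.96 (adjusted p = 0.295). Here the Sall4 MO group was the one away from the controls, by -1.94 (adjusted p = 0.0245), and Oct4 MO embryos lay 0.74 from them (adjusted p = 0.416). Its paralog Ccn2, another YAP and TEAD target, which was singled out after its values were seen, read 129, 168 and 189.9 in Oct4 MO embryos and 4.47, 4.94 and 4.85 in Sall4 MO embryos, and 120.3, 161 and 209.7 in control-injected embryos. Each Sall4 MO array lay far below every other array of the experiment, with a log2 difference of 3.09 ± 0.42 between the knockdowns (adjusted p = 1.14e-05). It was among the 22 genes that passed with the 6 arrays alone (adjusted p = 0.0304). The remaining 2 immediate early genes that passed were Fosl2 and Ier3, outside the naming rule. The call of Fosl2 (log2 difference 2.31) was lost without Oct4 MO replicate 2 or 3 or Sall4 MO replicate 2, and that of Ier3 (2.33) in 5 of the 6 fits that left out an array, with adjusted p of up to 0.271. Fos, also singled out after its values were seen, differed by 1.31 ± 0.65 (adjusted p = 0.257).

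Heat shock chaperones and their cofactors had a list median of 0.06. Of 21 tested, 3 were higher in Oct4 MO embryos (14.3%, against 3.71% of all genes) and none lower. The members that passed were led by the stress-inducible pair of Hsp70 genes. Hspa1a read 2492, 2541 and 1538 in Oct4 MO embryos and 114, 208 and 213 in Sall4 MO embryos, and 324, 86.8 and 144 in control-injected embryos. No other array of the experiment came near the Oct4 MO arrays, and the log2 difference was 3.51 ± 0.40 (adjusted p = 7.17e-07). Hspa1b, a neighbouring copy whose coding sequence is nearly identical, so that its probes may read both genes, read 1627, 2427 and 1498 in Oct4 MO embryos and 199, 59.4 and 932 in Sall4 MO embryos. Its difference of 2.88 ± 0.70 (adjusted p = 0.00861) was lost without Sall4 MO replicate 2 (adjusted p = 0.1). Hspa5, the Hsp70 of the endoplasmic reticulum, read 2362, 2701 and 2546 in Oct4 MO embryos and 1745, 1771 and 1885 in Sall4 MO embryos, with 1270.1, 1139 and 1254 in control-injected embryos. It was above control in both knockdowns, by 1.04 in Oct4 MO and 0.56 in Sall4 MO embryos (adjusted p = 5.98e-06 and 0.0192). Its difference between the knockdowns, 0.49 ± 0.14 (adjusted p = 0.0284), was lost without Oct4 MO replicate 2 or 3 or Sall4 MO replicate 1 or 2 (adjusted p up to 0.0971). Without Sall4 MO replicate 2, 1 of the 21 chaperone genes passed.

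Of 23 growth arrest and p53 target genes tested, 4 were higher in Oct4 MO embryos (17.4%, against 3.71% of all genes) and none lower, with a median of 0.36. Gadd45g, a stress-induced inhibitor of cell cycle progression, read 179, 318 and 727 in Oct4 MO embryos and 27.8, 32.1 and 41.3 in Sall4 MO embryos, against 46.4, 20.7 and 33.5 in control-injected embryos. The Oct4 MO arrays spread over a wide range but stayed above all others, with a log2 difference of 2.88 ± 0.36 (adjusted p = 3.28e-06). Gadd45a, Pmaip1 (the BH3-only death gene Noxa) and Plk2 (a polo-like kinase) differed by 2.22 ± 0.57, 2.53 ± 0.69 and 2.02 ± 0.56, with adjusted p of 0.0126, 0.0198 and 0.0222. Each of these 3 calls was lost in at least 3 of the 6 fits that left out an array, with adjusted p of up to 0.119. The list's count was 2 without any 1 of the Oct4 MO replicates and without Sall4 MO replicate 3. Of 16 genes of the Bcl2 family, 2 were higher and 1 lower (18.8% in either direction, against 7.07% of all genes). The lower one was Bok, a pore-forming relative of Bax, which read 112, 38.1 and 30.8 in Oct4 MO embryos and 299, 338 and 247 in Sall4 MO embryos, a log2 difference of -2.17 ± 0.38 (adjusted p = 0.000337). Bcl2l10, one of the higher ones, differed by 1.62 ± 0.47 (adjusted p = 0.0304), a call lost without Oct4 MO replicate 2 or 3 or Sall4 MO replicate 1 or 2, and no member of this family was higher without Oct4 MO replicate 2 or Sall4 MO replicate 1.

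The 250 bases before the start of transcription are shown for 4 of these genes. In Hspa1a, Dusp1 and Gadd45g the Oct4 MO arrays stood above all others of the experiment, though the replicates did not rank alike across these genes. Ccn1 is shown for contrast. Sequences are those of RefSeq, build GRCm38.p6, written 5′ to 3′ on the strand of the gene, with matches to the searched motifs in capitals. The motifs were the heat shock elements GAANNTTC and TTCNNGAA, the cyclic AMP response element TGACGTCA, the AP-1 site TGANTCA, the TEAD site CATTCC, the octamer ATGCAAAT bound by Oct4, and the CArG box, on both strands.
Hspa1a, chr17:34972157-34972406, minus strand: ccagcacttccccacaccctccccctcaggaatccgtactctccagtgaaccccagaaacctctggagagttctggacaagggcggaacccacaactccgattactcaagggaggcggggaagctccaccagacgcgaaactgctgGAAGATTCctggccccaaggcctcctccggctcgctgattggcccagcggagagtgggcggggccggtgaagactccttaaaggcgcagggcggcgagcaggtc
Dusp1, chr17:26508473-26508722, minus strand: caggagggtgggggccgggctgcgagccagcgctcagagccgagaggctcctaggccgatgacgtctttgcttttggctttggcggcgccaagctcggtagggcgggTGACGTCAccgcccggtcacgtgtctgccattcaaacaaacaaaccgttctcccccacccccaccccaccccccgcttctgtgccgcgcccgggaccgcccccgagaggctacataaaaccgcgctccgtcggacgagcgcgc
Gadd45g, chr13:51846425-51846674, plus strand: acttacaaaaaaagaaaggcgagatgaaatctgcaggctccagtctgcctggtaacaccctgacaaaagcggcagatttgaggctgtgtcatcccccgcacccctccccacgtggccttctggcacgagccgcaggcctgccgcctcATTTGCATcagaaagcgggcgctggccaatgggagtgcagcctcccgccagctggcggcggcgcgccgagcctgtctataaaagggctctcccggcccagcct
Ccn1, chr3:145649986-145650235, minus strand: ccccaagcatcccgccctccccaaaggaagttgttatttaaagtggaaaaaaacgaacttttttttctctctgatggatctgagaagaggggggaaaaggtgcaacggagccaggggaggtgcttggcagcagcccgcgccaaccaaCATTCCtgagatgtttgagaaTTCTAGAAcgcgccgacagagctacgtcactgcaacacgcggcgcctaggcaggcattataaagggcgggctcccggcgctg
The capitals in Hspa1a are a heat shock element whose first base lies 104 bases before the start, and the same window of Hspa1b differed at 3 of 250 bases and held the same element. Dusp1 held a cyclic AMP response element 143 bases before its start, Gadd45g an octamer, written as its reverse complement, 103 bases before, and Ccn1 a TEAD site 103 bases and a heat shock element 82 bases before. The windows of Ier5 and Ier3 held no match.

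Of the 1095 passing genes, 901 had a promoter in the RefSeq table, 464 of them higher and 437 lower in Oct4 MO embryos. The heat shock element GAANNTTC was found in 4.53% of promoters of genes higher in Oct4 MO embryos, in 5.72% of those of lower genes and in 6.79% of 27025 genes, and for TTCNNGAA the shares were 6.68%, 5.72% and 7.1%. The AP-1 site was in 6.25% of promoters of higher genes, 4.58% of those of lower genes and 6.87% of all genes. For the cyclic AMP response element the shares were 2.8%, 2.52% and 1.56%, and for the TEAD site 9.7%, 7.78% and 12.6%. The octamer was in 2.37% of promoters of higher genes and 0.686% of those of lower genes, which is 11 and 3 promoters, and in 1.59% of all genes. The CArG box was in 1.72% of promoters of higher genes and 0.458% of those of lower genes, which is 8 and 2 promoters, and in 1.39% of all genes. A match in this window is a description of the letters and not of binding.

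Ordered by size, the gene furthest above the Sall4 MO level was Rlbp1. It encodes the retinaldehyde-binding protein of the visual cycle and had the largest difference, 4.31 ± 0.51 on the log2 scale (adjusted p = 1.04e-06). It read 1429, 349.6 and 224 in Oct4 MO embryos and 13.1, 7.94 and 7.31 in Sall4 MO embryos, and 69.6, 85.2 and 104 in control-injected embryos, which thus lay between the knockdowns. St6galnac2, a sialyltransferase, read 1351, 1575 and 1679 in Oct4 MO embryos and 62.8, 117 and 58.3 in Sall4 MO embryos, a log2 difference of 4.07 ± 0.58 (adjusted p = 2.81e-05), although its other probe set above the filter differed by 0.19. Snhg16, a host gene of small nucleolar RNAs, read 1012, 1029 and 1472 in Oct4 MO embryos and 87.3, 97.9 and 127 in Sall4 MO embryos, and 191, 235 and 167 in control-injected embryos (log2 difference 3.30 ± 0.42, adjusted p = 5.12e-06). Slc25a42, a mitochondrial carrier of coenzyme A, read 393, 489.7 and 608 in Oct4 MO embryos and 21.8, 21 and 26 in Sall4 MO embryos, a log2 difference of 3.70 ± 0.60 (adjusted p = 0.000162). In each of these 4 genes all 3 Oct4 MO arrays stood above every other array of the experiment, with the widest spread among them in Rlbp1. Cited2, a transcriptional coregulator of CBP and p300, read 737, 1485 and 921 in Oct4 MO embryos and 92.1, 48.2 and 167 in Sall4 MO embryos, and 217, 270.3 and 492 in control-injected embryos (log2 difference 3.23 ± 0.50, adjusted p = 8e-05).

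Of the others among the 15 largest, Gabrp (a GABA receptor subunit), Mbnl3 (a splicing regulator), Gm5124 and Gm9958 (predicted genes) and Tubb3 (a beta tubulin best known from neurons) differed by 4.30, 4.23, 4.12, 3.47 and 3.18 and passed in all 6 fits that left out an array. Tubb3 did not pass in the 12-array fit (adjusted p = 0.069). The calls of 5830454E08Rik, Acer1, Skor1 and Nptx1, with log2 differences of 3.61, 3.49, 3.20 and 3.19, were each lost without at least 1 array. Those arrays were Oct4 MO replicate 2 and Sall4 MO replicate 2 for 5830454E08Rik (adjusted p up to 0.0595), these and Oct4 MO replicate 3 for Acer1 (0.0851), Oct4 MO replicate 3 for Skor1 (0.0979) and all but Sall4 MO replicate 3 for Nptx1 (0.21). The probe set means of Gabrp, Mbnl3, Gm5124, St6galnac2, Slc25a42, Acer1, Snhg16 and Skor1 were smaller but passed, at 2.14, 2.52, 1.82, 2.13, 1.83, 1.94, 2.08 and 1.53.

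Among genes lower in Oct4 MO embryos, Psmb2, a beta subunit of the proteasome core, had the largest drop and the smallest adjusted p of all genes tested. It read 90.5, 26.8 and 24.3 in Oct4 MO embryos and 1572, 1806 and 1112 in Sall4 MO embryos, and 1604, 2378 and 1453 in control-injected and 2829, 2148 and 2159.5 in uninjected embryos. Oct4 MO replicates 2 and 3 read about the median of all probe sets on their arrays, 30.2 and 29.5, and replicate 1 read above its median of 28.3. No other array of the experiment came near these values, with a log2 difference of -4.71 ± 0.29 (adjusted p = 1.99e-12), and Psmb2 was 1 of the 9 lower genes that passed with the 6 arrays alone. Hells, a chromatin remodeller needed for DNA methylation, read 20.1, 146 and 92.2 in Oct4 MO embryos and 1184, 1133 and 1349 in Sall4 MO embryos, and 809.7, 858 and 1517 in control-injected embryos (log2 difference -3.85 ± 0.35, adjusted p = 1e-08). The probe set mean of Hells ended the call, at -0.98 (adjusted p = 0.231). Zfp414, a zinc finger gene, and Drg2, a GTP-binding protein, differed by -3.65 ± 0.69 and -3.20 ± 0.66 (adjusted p = 0.000823 and 0.00198). Lars, the cytosolic leucyl-tRNA synthetase, read 12.3, 164 and 14.9 in Oct4 MO embryos and 729, 300.4 and 455 in Sall4 MO embryos, and 805, 964 and 1021 in control-injected embryos (log2 difference -3.15 ± 0.67, adjusted p = 0.00263). Wdr77, a partner of the arginine methyltransferase Prmt5, read 602, 47.9 and 640.3 in Oct4 MO embryos and 2794, 1917 and 2168 in Sall4 MO embryos, a log2 difference of -2.95 ± 0.45 (adjusted p = 6.22e-05, and 0.0504 in the 12-array fit), with Oct4 MO replicate 2 far below its replicates.

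**Figure D2:**
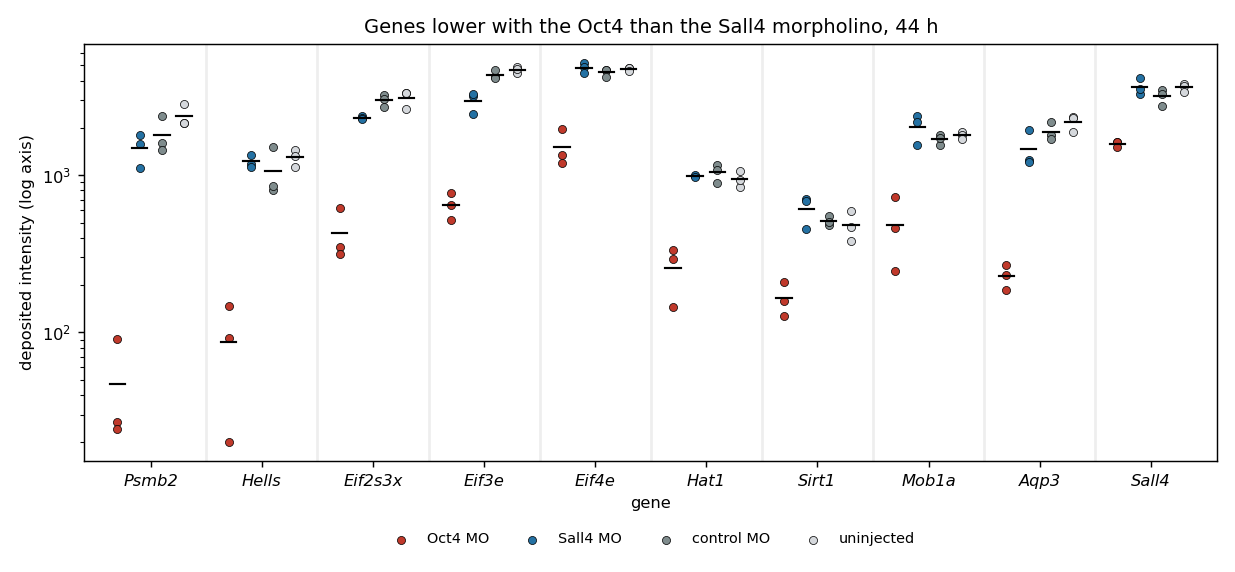
Deposited intensity (log axis) of 10 genes that were lower in Oct4 MO than in Sall4 MO embryos at 44 h, with points for single arrays and bars for means of 3; the order in each gene is Oct4 MO, Sall4 MO, control MO and uninjected. In Psmb2, Eif4e and Hat1 the Oct4 MO arrays lie below all 9 others.

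Ackr4 (an atypical chemokine receptor), Ptpn9 (a tyrosine phosphatase), Tubgcp5 (a gamma-tubulin complex component) and Dph6 (an enzyme of diphthamide synthesis) differed by -2.96, -2.95, -3.25 and -3.06, and passed without each of the 6 arrays. The probe set mean of Ackr4 was -1.75 and passed. Tubgcp5 did not pass with the probe set mean of -1.66 (adjusted p = 0.0596). Dph6 did not pass in the 12-array fit (adjusted p = 0.052). For Atxn10, Csnk1e and Rnf130, which differed by -3.35, -3.01 and -3.14, probe sets disagreed: another probe set of each gave 0.40, 0.02 and 1.68. Their probe set means were -1.14, -1.61 and -0.61, the last of which did not pass (adjusted p = 0.154), and Csnk1e did not pass in the 12-array fit (adjusted p = 0.0815). The call of Pon2 (-3.81) was lost without Sall4 MO replicate 1 or 3 (adjusted p up to 0.0909) and that of Ccdc71 (-3.56) without Oct4 MO replicate 2 (0.0604).

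Among 49 translation factors tested, 4 were lower (8.16%) and 2 higher (4.08%) in Oct4 MO embryos, with a median of -0.05. Of all genes, 3.36% were lower and 3.71% higher. The 4 lower translation factors had large drops, and all passed without each of the 6 arrays and in the 12-array fit. Eif2s3x, the X-linked gamma subunit of eIF2, which brings the initiator tRNA to the ribosome, read 351, 314 and 619 in Oct4 MO embryos and 2382, 2296 and 2264 in Sall4 MO embryos, and 3242, 3049.7 and 2702 in control-injected embryos. Its log2 difference was -2.45 ± 0.18 (adjusted p = 8.33e-11), and 3 probe sets of the gene gave -2.53 to -2.36. Eif3e and Eif3b, both subunits of the eIF3 complex, differed by -2.18 ± 0.17 and -2.57 ± 0.45 (adjusted p = 6.29e-10 and 0.000385). Eif3e read 773, 515 and 645 in Oct4 MO embryos and 3168, 2449.8 and 3266 in Sall4 MO embryos, and 4192, 4672 and 4154 in control-injected embryos, with Oct4 MO arrays far under both other groups. Against control-injected embryos it lay at -2.74 in Oct4 MO and -0.56 in Sall4 MO embryos (adjusted p = 1.41e-12 and 0.0637). Eif4e, the cap-binding protein, read 1957, 1352 and 1199 in Oct4 MO embryos and 5176, 4854 and 4451 in Sall4 MO embryos, a log2 difference of -1.70 ± 0.14 (adjusted p = 1.63e-09), with the Sall4 MO arrays overlapping the controls at 4682, 4647 and 4206. The 2 higher ones, Eif4a2 and Gspt1, were outside the naming rule, differed by 0.43 and 0.86, and lay in Sall4 MO embryos under the controls, by -0.59 and -1.07 (adjusted p = 0.002 and 0.00948). No translation factor was higher without Oct4 MO replicate 3 or Sall4 MO replicate 2, and 1 was without Oct4 MO replicate 2.

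Of 45 proteasome genes, 3 were lower, Psmb2 among them, and 2 higher (11.1% in either direction, against 7.07% of all genes), with a median of -0.08. Psmd10 and Psmd8, regulatory particle genes, differed by -2.28 ± 0.62 and -2.01 ± 0.56 (adjusted p = 0.0202 and 0.0222). Psmd10 lost its call without Oct4 MO replicate 3 or Sall4 MO replicate 3 (adjusted p up to 0.127), and Psmd8 without Oct4 MO replicate 1 or 2 or Sall4 MO replicate 1 or 2 (up to 0.0694). Psmb10, an immunoproteasome subunit, was higher by 1.56 ± 0.32 (adjusted p = 0.00195, and 0.0629 in the 12-array fit), and it was the 1 higher gene of the list without any 1 of the arrays but Oct4 MO replicate 3. Of 46 cytosolic ribosomal protein genes, 1 was higher and none lower, with 1 lower without Sall4 MO replicate 2. Rps6 read 2516, 2419 and 2101 in Oct4 MO embryos and 499, 229 and 463 in Sall4 MO embryos, and 459, 585 and 619.9 in control-injected embryos (log2 difference 2.58 ± 0.41, adjusted p = 0.000117), a value held as uncertain because ribosomal protein genes have many processed pseudogenes. The probe set mean of Rps6 was 1.12 and did not pass (adjusted p = 0.0989). The 2 brightest members, Rpl13a and Rpl38, differed by 0.24 ± 0.13 and -0.02 ± 0.25 (adjusted p = 0.323 and 0.984). Of 53 nucleolar ribosome biogenesis genes, 2 were lower and 1 higher, with Wdr36, a component of the small subunit processome, at -1.60 ± 0.24 (adjusted p = 5.92e-05) and Nop2, an rRNA methyltransferase, at 0.97 ± 0.20 (adjusted p = 0.00163). Wdr36 read 434, 838 and 450.0 in Oct4 MO embryos and 1682, 1667 and 1748 in Sall4 MO embryos, with control-injected embryos at the Sall4 MO level. The list's count of lower genes was 1 without Oct4 MO replicate 1 or Sall4 MO replicate 1 or 3, which ended the call of Dkc1 (-0.71, adjusted p = 0.018), as did leaving out Oct4 MO replicate 2 (adjusted p up to 0.176), and 2 were higher without Sall4 MO replicate 3.

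Histone modifying and chromatin remodelling genes had the largest share of lower members, 10 of 60 tested (16.7%), with 1 higher and a list median of -0.11. Sirt1, an NAD-dependent deacetylase, read 208, 128 and 158 in Oct4 MO embryos and 704, 682 and 451 in Sall4 MO embryos, and 547, 485 and 502 in control-injected embryos. Its log2 difference was -1.80 ± 0.21 (adjusted p = 7.31e-07), and each Oct4 MO array lay below each array of the other 3 groups. Hat1, which acetylates newly made histone H4, read 291, 335 and 144 in Oct4 MO embryos and 989.6, 996 and 971 in Sall4 MO embryos, a log2 difference of -1.95 ± 0.23 (adjusted p = 1.51e-06). Kdm1a, the histone demethylase LSD1, read 1105, 954 and 1248 in Oct4 MO embryos and 2642, 2219.6 and 2148 in Sall4 MO embryos, a log2 difference of -1.08 ± 0.25 (adjusted p = 0.00532). Gatad2a, a subunit of the NuRD complex, read 2067, 2245 and 2304 in Oct4 MO embryos and 5019, 4574 and 2668 in Sall4 MO embryos (log2 difference -0.83 ± 0.15, adjusted p = 0.000631), with Sall4 MO replicate 3 near the Oct4 MO level, a difference of 0.49 from another of its 3 probe sets, and no call in the 12-array fit (adjusted p = 0.0905) or with the probe set mean of -0.24 (adjusted p = 0.644). Hdac1, the deacetylase of several corepressor complexes, was the fifth member that passed without each of the 6 arrays and differed by -0.59 ± 0.14 (adjusted p = 0.00702, and 0.115 in the 12-array fit). The other lower members, singled out because they passed, were Kdm6a, Smarca4, Carm1, Hdac3 and Smarcd1, and the higher one was Kdm4a. For each of these 6 there were 2 or more arrays whose removal ended the call, with adjusted p of up to 0.192. The lower count was 6 to 8 in the 6 fits that left out an array, lowest without Sall4 MO replicate 1. No member was higher without Oct4 MO replicate 2 or 3 or Sall4 MO replicate 1 or 2.

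DNA replication and nucleotide supply genes passed often (20.9% of 43 tested) and in both directions, 4 higher and 5 lower, with a median of -0.09. Mcm5, a subunit of the replicative helicase, read 296, 314 and 736 in Oct4 MO embryos and 2010.1, 919 and 1464 in Sall4 MO embryos, and 1808, 1962 and 2199 in control-injected embryos (log2 difference -1.73 ± 0.25, adjusted p = 4.17e-05). Prim1, the catalytic subunit of primase, differed by -1.40 ± 0.29 (adjusted p = 0.00214, and 0.0769 in the 12-array fit), and another of its probe sets by -0.13, with a probe set mean of -0.77 that did not pass (adjusted p = 0.113). In the opposite direction, Orc1, the large subunit of the origin recognition complex, read 828, 786 and 752 in Oct4 MO embryos and 49.8, 50.9 and 189 in Sall4 MO embryos, a log2 difference of 3.06 ± 0.32 (adjusted p = 1.48e-07), with a probe set mean of 1.38. Control-injected embryos lay between the knockdowns, at 211, 316 and 279, so that Oct4 MO was above control by 1.51 and Sall4 MO away from it by -1.54 (adjusted p = 0.0018 and 0.00423). The lower count was 2 without Oct4 MO replicate 2 or Sall4 MO replicate 1 and 3 without Oct4 MO replicate 3. It was at most 4 in any fit that left out an array.

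Of 43 cell cycle and mitosis genes, 4 were higher (9.3%, against 3.71% of all genes) and 2 lower (4.65%, against 3.36%). Cenpa, the centromeric histone, read 162, 58.7 and 207 in Oct4 MO embryos and 265, 329 and 277 in Sall4 MO embryos (log2 difference -1.09 ± 0.23, adjusted p = 0.00292, and 0.122 in the 12-array fit). The probe set mean of Cenpa was -0.55 and did not pass (adjusted p = 0.406). Mad2l1 (a spindle checkpoint gene), Incenp (of the chromosomal passenger complex) and Ccne2 (a cyclin of the G1 to S transition) were higher by 0.80, 0.58 and 2.35. Each lost its call without at least 1 array of each group (adjusted p up to 0.215). The higher count was at most 3 in any fit that left out an array. It was 1 without Sall4 MO replicate 2 and 2 without Oct4 MO replicate 3 or Sall4 MO replicate 1 or 3. The lower count was 1 without Oct4 MO replicate 1 or 3 or any of the Sall4 MO replicates. Of 61 genes of RNA polymerase II and its general factors and Mediator, 7 were higher (11.5%) and 3 lower (4.92%). Med19, of the Mediator middle module, read 140.3, 308 and 239 in Oct4 MO embryos and 558, 590.1 and 739 in Sall4 MO embryos (log2 difference -1.45 ± 0.24, adjusted p = 0.000193). Taf6, a TFIID subunit, and Polr2c, a polymerase subunit, were higher by 1.33 ± 0.29 and 0.60 ± 0.14 (adjusted p = 0.00381 and 0.00627, the second 0.135 in the 12-array fit). Taf12 was higher by 0.95, lost without Oct4 MO replicate 3 or Sall4 MO replicate 2 (adjusted p up to 0.067). The higher count of this list was at most 5 in any fit that left out an array, and 4 without Oct4 MO replicate 1 or 3 or Sall4 MO replicate 1 or 2. Its lower count was 5 without Sall4 MO replicate 3.

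Of 51 spliceosome and SR protein genes, 3 were lower and 1 higher (7.84% in either direction, near the 7.07% of all genes). Snrpf, the Sm protein F of spliceosomal particles, read 1323, 1534 and 1239 in Oct4 MO embryos and 2839, 2389 and 2546 in Sall4 MO embryos, and 2888, 3151 and 3193 in control-injected embryos (log2 difference -0.92 ± 0.14, adjusted p = 4.37e-05). Lsm3, of the U6 particle, differed by -1.60 and lost its call without Oct4 MO replicate 1 (adjusted p = 0.0594). Srsf6 (-0.84) lost its call without each of the 6 arrays (adjusted p up to 0.136), and Snrnp70 (0.61) without Oct4 MO replicate 2 or Sall4 MO replicate 1 or 2 (up to 0.246). Their other probe sets disagreed in sign. The lower count was 1 without Oct4 MO replicate 1.

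Lineage genes of the blastocyst passed between the knockdowns in small numbers, given here beside the 7.07% of all genes tested. Of 26 trophectoderm genes, 2 were higher and 1 lower in Oct4 MO embryos (11.5%), with a median of 0.43 against 0.03 for all genes tested. Atp1b1, the beta subunit of the sodium pump that helps fill the blastocyst cavity, read 1626, 2529 and 1689 in Oct4 MO embryos and 284, 424 and 223 in Sall4 MO embryos, and 541, 196 and 364 in control-injected embryos. The Oct4 MO arrays were alone at this level, with a log2 difference of 2.61 ± 0.37 (adjusted p = 3.01e-05), and the other 3 probe sets above the filter also gave positive differences, the lowest 0.84. The probe set mean was 1.28. Aqp3, a water and glycerol channel of the embryo, went the other way, at 186, 232 and 269 in Oct4 MO embryos and 1928, 1256 and 1209.5 in Sall4 MO embryos, and 1796, 2174 and 1689.5 in control-injected embryos (log2 difference -2.58 ± 0.48, adjusted p = 0.000754, and 0.0483 with the 6 arrays alone). Krt7, a keratin with low values in both groups, differed by 0.76 and lost its call without Oct4 MO replicate 1 or 3 or Sall4 MO replicate 2 or 3 (adjusted p up to 0.132). Of 16 primitive endoderm and basement membrane genes, none passed in either direction and 1 was higher without Oct4 MO replicate 3 or Sall4 MO replicate 1. The brightest members, Gata4 and Gata6, differed by -0.28 ± 0.48 and -0.01 ± 0.48 (adjusted p = 0.854 and 0.996).

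Of 21 genes of the Hippo pathway, which sets outer cells apart from inner ones, 2 were lower in Oct4 MO embryos. Mob1a, the scaffold that activates the Lats kinases, read 464, 247 and 731 in Oct4 MO embryos and 2379.6, 1556 and 2166 in Sall4 MO embryos, and 1552, 1810.4 and 1725 in control-injected embryos (log2 difference -2.15 ± 0.26, adjusted p = 1.26e-06). All 3 Oct4 MO arrays lay below every other array. Stk4, the upstream kinase Mst1, differed by -0.89 ± 0.25 (adjusted p = 0.0212) and lost its call without Oct4 MO replicate 2 or Sall4 MO replicate 2 or 3 (adjusted p up to 0.0973), and the list held 1 lower gene without Sall4 MO replicate 2 or 3. Of 22 FGF signalling genes, 2 were higher, Etv4 by 1.18 and Spry4 by 1.76, both feedback or target genes of the pathway. Etv4 passed without Oct4 MO replicate 1 or Sall4 MO replicate 3 and Spry4 without Oct4 MO replicate 3, and neither in the other fits that left out an array (adjusted p up to 0.149), and 1 member was lower without Sall4 MO replicate 1. Of 26 tight junction and polarity genes, Cdc42 was lower by -0.63 and Prkci higher by 1.39. The first call was lost without Oct4 MO replicate 3 (adjusted p = 0.0918), and the second without Oct4 MO replicate 1 or 2 or Sall4 MO replicate 3 (up to 0.182).

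Metabolic and transport genes passed in small numbers. Of 20 genes of glucose uptake and glycolysis, 2 were higher (10.0%, against 3.71% of all genes) and none lower, with a median of 0.41. Pgk1, phosphoglycerate kinase, read 1001, 1197 and 955 in Oct4 MO embryos and 251, 257 and 231 in Sall4 MO embryos, and 492, 255 and 376 in control-injected embryos, with a log2 difference of 2.02 ± 0.32 (adjusted p = 0.000101, and 0.0483 with the 6 arrays alone). The replicates of each knockdown were close to each other and the groups far apart. Ldha differed by 2.05 and lost its call without any 1 of the Oct4 MO replicates or without Sall4 MO replicate 2, which read 40.6 against 433 and 708 (adjusted p up to 0.357). Of 20 amino acid transporters, Slc6a9, the glycine transporter of early embryos, was higher by 2.02 ± 0.33 (adjusted p = 0.000144). Slc7a6 was lower by -2.42, lost without Oct4 MO replicate 1 or 3 or Sall4 MO replicate 3 (adjusted p up to 0.097), and its other probe set gave 0.58. The count of higher transporters was 2 without Oct4 MO replicate 2 or Sall4 MO replicate 1.

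In a further set of genes that separated the knockdowns, the Sall4 MO mean lay away from the control mean. They were picked from the named genes and their lists after their values were seen, so they are given as values. Cycs, cytochrome c, read 2434, 3007 and 2942 in Oct4 MO embryos and 1617, 1226 and 1192 in Sall4 MO embryos, and 2370.0, 2423 and 2387 in control-injected embryos, with a log2 difference of 1.05 ± 0.18 between the knockdowns (adjusted p = 0.000253) and a probe set mean of 0.69. Sall4 MO lay from control by -0.84 (adjusted p = 0.00507) and Oct4 MO by 0.22 (adjusted p = 0.535). Ndufb10 and Ndufb2, complex I subunits, showed the same order, with log2 differences of 2.11 ± 0.41 and 1.77 ± 0.36 between the knockdowns (adjusted p = 0.00121 and 0.00172, the second 0.0835 in the 12-array fit). Another complex I subunit, Ndufs4, was lower in Oct4 MO embryos by -2.81 ± 0.52 (adjusted p = 0.000631), and with the probe set mean Ndufs4 lay at -0.96 and did not pass (adjusted p = 0.0564). In all, 4 of 72 respiratory chain genes were higher and 2 lower (8.33% in either direction, near the 7.07% of all genes). Pold3, a subunit of DNA polymerase delta, read 2018, 2345 and 1978 in Oct4 MO embryos and 905, 885 and 1048 in Sall4 MO embryos, and 2485, 3131 and 3214 in control-injected embryos (log2 difference 1.15 ± 0.18, adjusted p = 9.69e-05). Rrm2, of ribonucleotide reductase, read 3067, 3113 and 2445 in Oct4 MO embryos and 1455, 1905 and 1879 in Sall4 MO embryos, and 3155, 2694 and 2934 in control-injected embryos (log2 difference 0.72 ± 0.16, adjusted p = 0.00499, and 0.0822 in the 12-array fit). Sall4 MO embryos had the lowest mean in each of these genes but Ndufs4.

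**Figure D3:**
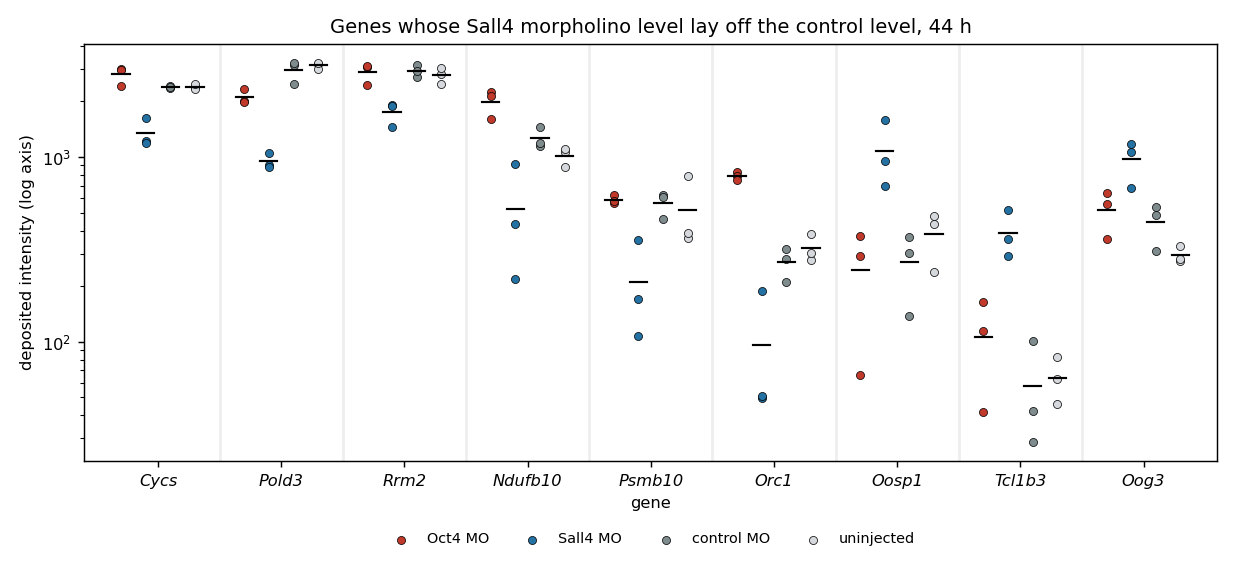
Deposited intensity (log axis) of 9 genes, chosen after their values were seen, in which Sall4 MO embryos differed from control-injected embryos at 44 h; points are arrays, bars means of 3, and groups run Oct4 MO, Sall4 MO, control MO, uninjected. Sall4 MO arrays are the lowest group in Cycs, Pold3, Rrm2, Ndufb10, Psmb10 and Orc1 and the highest in Oosp1, Tcl1b3 and Oog3.

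A few maternal oocyte transcripts lay above the controls in Sall4 MO embryos. Of 41 tested, 4 were lower (9.76%, against 3.36% of all genes) and 1 higher in Oct4 MO than in Sall4 MO embryos, with a median of -0.07. Oosp1, an oocyte-secreted protein, read 66.5, 375 and 291 in Oct4 MO embryos and 1589.7, 695 and 955 in Sall4 MO embryos, and 367, 303 and 138 in control-injected embryos (log2 difference -2.27 ± 0.40, adjusted p = 0.000455). Tcl1b3 and Oog3, of gene families expressed in oocytes whose near copies make them uncertain, differed by -1.83 ± 0.41 and -0.89 ± 0.20 (adjusted p = 0.00457 and 0.00499). Both lost their call without Oct4 MO replicate 2 (adjusted p = 0.054 and 0.0571), when 2 maternal genes were lower. No maternal gene was higher without Oct4 MO replicate 2 or 3 or Sall4 MO replicate 1 or 2, and 2 were without Oct4 MO replicate 1. Zp1, a zona pellucida protein, differed by -1.88, lost without Oct4 MO replicate 1 or Sall4 MO replicate 1 or 3 (up to 0.184). None of these 4 passed in the 12-array fit, with adjusted p of 0.0661 for Oosp1, 0.0608 for Tcl1b3, 0.146 for Oog3 and 0.154 for Zp1. Against control-injected embryos these 4 lay at 1.96, 2.55, 1.11 and 1.85 in Sall4 MO embryos, with adjusted p of 0.0036, 0.000352, 0.0012 and 0.0425. The summed intensity of 7 oocyte and egg markers, Oosp1 included, was 2436 to 3065 in Oct4 MO embryos, 3378 to 4033 in Sall4 MO embryos and 1877 to 2076 in control-injected embryos. Without Oosp1 the sum of the other 6 was 2347 to 2775 in Oct4 MO embryos and 2424 to 3187 in Sall4 MO embryos, which overlap, and 1573 to 1821 in control-injected embryos. None of these 6 markers passed between the knockdowns (limma adjusted p of 0.51 or more). Of 13 genes with transient expression at the 2-cell stage, 2 were higher in Oct4 MO embryos (15.4%, against 3.71% of all genes). Usp17la, a deubiquitinase of a family with near-identical copies and so uncertain, read 988, 1645 and 960.5 in Oct4 MO embryos and 99.7, 268 and 205 in Sall4 MO embryos, and 21, 89.5 and 48 in control-injected embryos (log2 difference 2.60 ± 0.50, adjusted p = 0.000882). Arg2 differed by 1.87, lost without Oct4 MO replicate 1 or 3 or Sall4 MO replicate 1 (adjusted p up to 0.161).

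**Figure D4:**
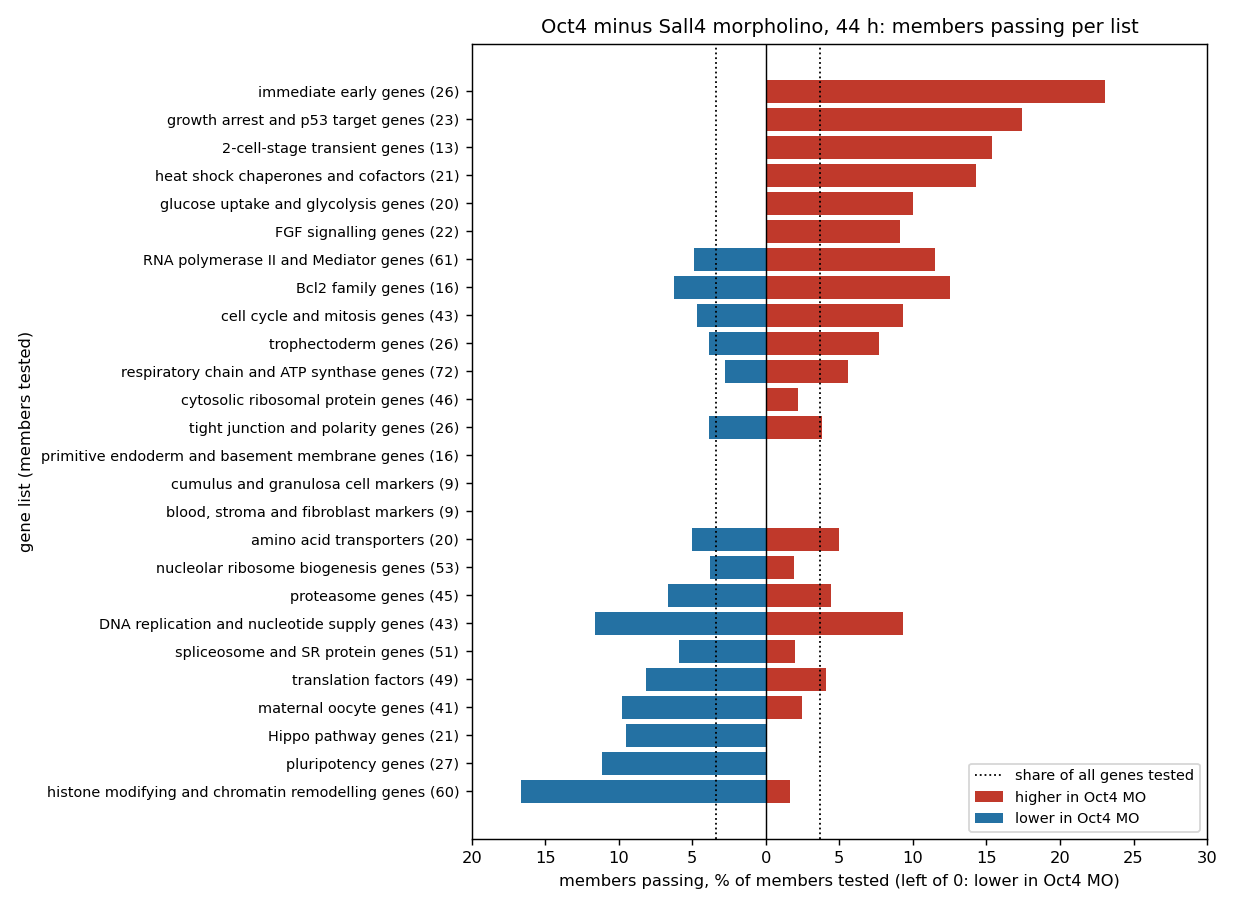
Share of the tested members of each of 26 gene lists that passed between Oct4 MO and Sall4 MO embryos at 44 h (x axis, %; right of 0 higher and left of 0 lower in Oct4 MO embryos); the number tested stands after each name, and dotted lines mark the shares of all genes tested, 3.71% higher and 3.36% lower. Immediate early genes reach furthest to the right and histone modifying and chromatin remodelling genes furthest to the left.

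Markers of cells outside the embryo did not separate the groups: none of 9 cumulus and granulosa cell markers and none of 9 markers of blood, stroma and fibroblasts passed in either direction, and 1 cumulus marker was lower without Sall4 MO replicate 3. Star and Nr5a1, the brightest of the first list, differed by 0.06 ± 0.51 and -0.34 ± 0.24, and Pecam1 and Cd68 of the second by 0.48 ± 0.66 and 0.35 ± 0.70.

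At 20 h each knockdown had uninjected embryos of its own, titled for separate Oct4 and Sall4 experiments, so the difference from these was compared. The contrast was passed by 86 genes (0.556%), 8 with a positive value (0.0517%) and 78 with a negative value (0.504%). A negative value can come from a fall in Oct4 MO embryos, a rise in Sall4 MO embryos or both, each against its own uninjected embryos. The count moved with the arrays used: it was 14 with the 24 arrays outside the Nanog experiment. Without 1 of the 12 arrays it was 31 to 162, the lowest without replicate 1 of the uninjected embryos of the Oct4 experiment and the highest without Oct4 MO replicate 1. Of the 86 genes, 21 also passed at 44 h (24.4% of the 86 and 1.92% of the 1095), all 21 in the same direction at both times. Of all genes tested, 7.07% passed at 44 h. The injected and uninjected arrays behind the 2 contrasts have no array in common. Both contrasts share 1 estimate of the spread for each gene, however, so the 2 sets of calls are not independent. Kank4, an ankyrin repeat gene of the KANK family, read 50.9, 10.8 and 26.7 in Oct4 MO embryos at 20 h against 584, 438 and 387 in their uninjected embryos, and 231, 559 and 118 in Sall4 MO embryos against 266, 266 and 208 in theirs. The difference of the differences was -3.53 ± 0.56 (adjusted p = 0.00152), and the 44 h difference -1.92 ± 0.39.

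**Figure D5:**
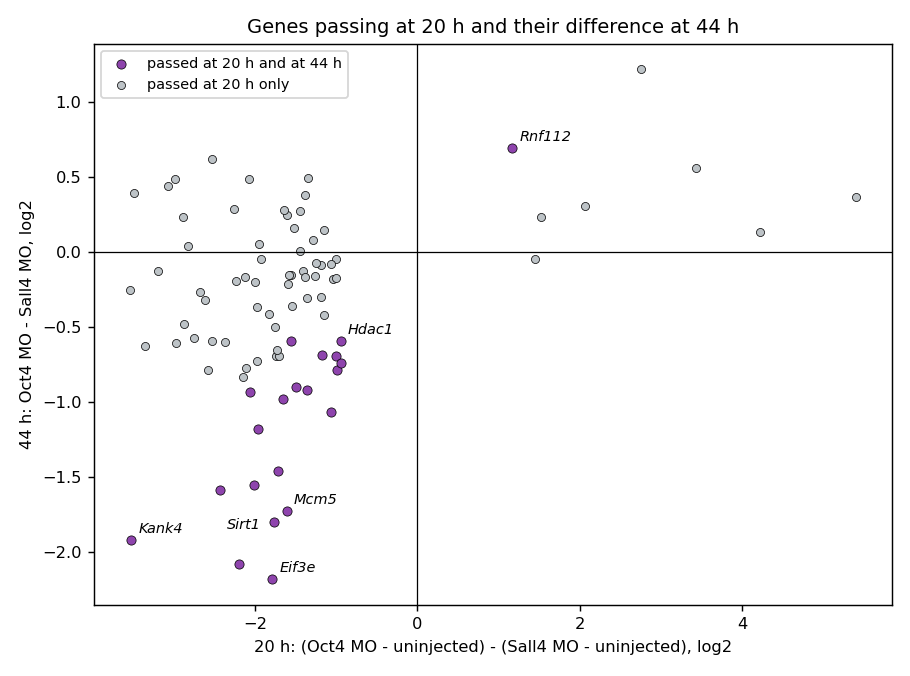
Log2 differences at 20 h (x axis, Oct4 MO minus its uninjected embryos less Sall4 MO minus its own) and at 44 h (y axis, Oct4 MO minus Sall4 MO) for the 86 genes that passed at 20 h; each point is 1 gene. The 21 genes that passed at both times lie in the lower left, except Rnf112 in the upper right.

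Translation and chromatin genes were among those that differed at both times. Eif3e read 346, 304 and 445 in Oct4 MO embryos at 20 h against 1695, 1433 and 1632 in uninjected embryos, and 1188, 1299 and 813 in Sall4 MO embryos against 1586, 1244 and 1196. All 3 Oct4 MO arrays lay under the other 9, with a difference of -1.79 ± 0.25 (adjusted p = 0.000283). It passed without each of the 12 arrays and with the 24 arrays outside the Nanog experiment (adjusted p = 0.0172). Sirt1 read 251, 195 and 301 in Oct4 MO embryos at 20 h against 916, 703 and 936 in uninjected embryos, and 829, 734 and 579 in Sall4 MO embryos against 596, 808 and 663. Its difference at 20 h was -1.76 ± 0.29 (adjusted p = 0.00183, and 0.0502 with the 24 arrays), beside -1.80 ± 0.21 at 44 h. Mcm5 and Hdac1 differed by -1.61 ± 0.36 and -0.94 ± 0.20 at 20 h (adjusted p = 0.029 and 0.0179). Both calls at 20 h were lost without Oct4 MO replicate 3, Sall4 MO replicate 2 or replicate 1 of the uninjected embryos of the Oct4 experiment, and that of Mcm5 also without each of 4 other arrays (adjusted p up to 0.107).

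The genes with the largest differences at 20 h mostly did not pass at 44 h. Psmb5, a proteasome core subunit like Psmb2, differed by -3.53 ± 0.47 at 20 h (adjusted p = 0.000263) and by -0.26 ± 0.33 at 44 h (adjusted p = 0.777). Its 20 h intensities were low. They read 37.9, 14.85 and 4.82 in Oct4 MO embryos against 142, 86.3 and 135 in their uninjected embryos. Sall4 MO embryos read 152, 151 and 103 against 31.4, 13.8 and 91.4 in theirs, a rise of 1.49 that is part of the difference. Psmb2 differed by -1.17 ± 0.41 at 20 h (adjusted p = 0.265), beside its difference of -4.71 at 44 h. Sort1 and, in the other direction, Lmo4, Trh and Fetub passed at 20 h with -3.48, 5.41, 4.22 and 3.43, and at 44 h gave 0.40, 0.37, 0.13 and 0.56 at low intensities. The value of Trh came mostly from Sall4 MO embryos, at -3.30 from their uninjected embryos (adjusted p = 0.00707), with Oct4 MO at 0.92 (adjusted p = 0.648). Uninjected embryos of the Sall4 experiment read 298, 1017 and 686 for Trh, and those of the Oct4 experiment 68.7, 20.6 and 107. Trh passed without each of the 12 arrays at 20 h, as Psmb5 did, but not with the 24 arrays outside the Nanog experiment (adjusted p = 0.069). Sort1, Lmo4 and Fetub passed in 3, 6 and 8 of the 12 fits that left out an array, with adjusted p of up to 0.198, and all 3 lost the call without replicate 1 or 3 of the uninjected embryos of the Oct4 experiment. The stress genes did not pass at 20 h: the difference was 0.78 ± 0.57 for Hspa1a, 0.65 ± 0.40 for Dusp1 and 0.85 ± 0.51 for Gadd45g (adjusted p = 0.811, 0.719 and 0.699).

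The genes that separated the knockdowns were followed in the arrays of the Nanog experiment. These arrays belong to neither knockdown group, but they entered the estimate of the spread, the choice of probe set and the filter. They are thus not independent of the calls. In Nanog MO embryos at 44 h set against control-injected embryos of the Nanog experiment, 64 of the 575 genes higher in Oct4 MO embryos rose (11.1%) and 8 fell (1.39%), where 3.44% of all genes rose and 1.56% fell. Of the 520 genes lower in Oct4 MO embryos, 15 rose (2.88%) and 14 fell (2.69%). Hspa1a, Dusp1 and Gadd45g lay at 1.95, 1.40 and 0.12 in that contrast (adjusted p = 0.00317, 0.00294 and 0.94), and Psmb2, Eif3e and Sirt1 at 0.26, -0.08 and -0.09 (adjusted p = 0.765, 0.91 and 0.915). In uninjected embryos of the Nanog experiment at 44 h set against 20 h, 49 of the 575 higher genes rose (8.52%) and 153 fell (26.6%), and 61 of the 520 lower genes rose (11.7%) and 117 fell (22.5%). Of all genes tested, 9.28% rose and 16.3% fell over that day, so both sets held a larger share of genes that fall over that day than all genes did. Whether a delay of development has a part in the comparison was not tested.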

How the data were processed

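The deposited table holds 1 intensity value for each of 45101 Affymetrix probe sets on 42 arrays, and the sources used here do not give how the authors made these intensities from scanner images or scaled arrays to each other. RNA was isolated with a PicoPure kit and amplified with NuGEN reagents, per the labels' protocols. The lowest value is 0.42 and 2.43% of values are exactly 1. Medians are 26.1 to 33.3 on the 24 arrays outside the Nanog experiment and 193 to 227 on the 18 arrays of it, and the number of arrays limits the precision. Probe sets were named from the platform annotation: 34945 name 1 gene, 932 several (left out) and 9160 none. The probe set with the highest mean log2 value stood for each of 18193 genes, of which 15478 had a mean above the table's median of 71.15 in at least 1 of 14 groups and were tested.

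Log2(intensity + 16) was fitted with limma 3.58.1 (R 4.3.3), with a mean for each of the 14 groups of 3 arrays and 28 residual degrees of freedom; 11 comparisons were taken from this fit, each adjusted by Benjamini-Hochberg over all genes tested. Arrays are numbered as biological replicates in their titles, with no word on separate cultures, so p-values speak only to the spread between them, which may in part be technical. Named genes were Pou5f1, Sall4 and Nanog, the 15 largest passing differences each way whose arrays do not overlap and whose higher mean is above the filter, up to 4 passing members of each of 26 lists (and the 2 brightest members where fewer than 2 passed), and the 3 largest each way at 20 h. Members and lists were chosen with earlier results of these data known. No set test was run. Alternatives covered pseudocount, filter, normalization, choice of probe set, arrays in the fit, array weights and leaving out each array. Promoters came from RefSeq (GRCm38.p6).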

Additional observations from a re-analysis of the deposited data

Results flagged for a closer look

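The difference between the Oct4 MO and Sall4 MO embryos at 44 h was itself set against the difference at 20 h, where each knockdown is taken relative to its uninjected embryos, in the same limma fit. This contrast was passed by 93 of 15478 genes (0.601%), 70 with a positive and 23 with a negative value, and 17 of them are named in the report. At 20 h the uninjected embryos of the knockdowns carry separate experiment labels, so time and experiment cannot be told apart here.

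The shift from 20 h to 44 h was positive, meaning further towards Oct4 MO at 44 h, for Rlbp1 (4.89 on the log2 scale, adjusted p = 0.0055), Gm5124 (4.0, adjusted p = 0.0121), Dusp1 (2.17, adjusted p = 0.0311), Orc1 (3.22, adjusted p = 0.00389), Ndufb10 (3.45, adjusted p = 0.0178), Pold3 (1.28, adjusted p = 0.046), Ccn2 (2.97, adjusted p = 0.0463), Rrm2 (1.27, adjusted p = 0.0275) and Gspt1 (1.87, adjusted p = 0.0311). It was also positive for Psmb5 (3.28, adjusted p = 0.00389), which passed at 20 h and not at 44 h. The shift was negative for Psmb2 (-3.53, adjusted p = 0.000287), Hells (-3.5, adjusted p = 0.00389), Ackr4 (-3.15, adjusted p = 0.0445), Eif2s3x (-1.97, adjusted p = 0.00138), Eif4e (-1.1, adjusted p = 0.0285) and Snrpf (-0.98, adjusted p = 0.045), which were lower in Oct4 MO embryos at 44 h and did not pass at 20 h. For Trh it was -4.09 (adjusted p = 0.0392), from a difference at 20 h that came mostly from Sall4 MO embryos and was absent from the calls at 44 h.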

How the results depend on the processing

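The count of 1095 passing genes at 44 h (575 higher and 520 lower in Oct4 MO embryos) stayed within 1.5 times of itself under other pseudocounts, filters, normalizations and choices of probe set, with a variance trend and with the 24 arrays outside the Nanog experiment. It did not with fewer arrays in the estimate of the spread: 481 genes (237 higher, 244 lower) with the 12 arrays of the experiment and 22 (13 and 9) with the 6 arrays alone, where 2072 had an unadjusted p under 0.05. With array weights it was 700, 336 of them higher. Leaving out 1 array of the 6 gave 848 to 981 genes, 398 to 502 higher and 387 to 489 lower. The labels do not say whether same-numbered replicates were paired. Deviations of same-numbered Oct4 MO and Sall4 MO arrays correlated at 0.011, -0.046 and 0.003, which shows no strong shared effect but cannot exclude a pairing. A fit with the replicate block gave 1078 genes (574 higher, 504 lower). At 20 h the count of 86 genes became 14 with the 24 arrays outside the Nanog experiment, 31 to 162 without 1 array, and 992 when Oct4 MO and Sall4 MO embryos were compared without their uninjected embryos, a comparison chosen after seeing the data that crosses 2 experiments. Signs turned for 5 named genes. Atxn10, Csnk1e and Slc7a6 gave 0.40, 0.02 and 0.58 from the probe set highest over the 6 arrays. Srsf6 and Snrnp70 gave 1.37 and -0.15 as the mean of all probe sets. The causes were not tested. The values are amplified RNA near the floor for many genes, with no detection call, so a low reading is not shown to be an absent transcript.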
